A study of Mus musculus with 4 samples.

Results

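The genes described here are 9 growth factor receptor tyrosine kinases, chosen by their gene names as the receptors for HGF, EGF, FGF, PDGF and insulin (Met, Egfr, Fgfr1, Fgfr2, Fgfr3, Fgfr4, Pdgfra, Pdgfrb and Insr). All 9 were among the 55573 genes of a ribosome profiling (Ribo-seq) table of mouse primary myoblasts, which grow out in culture from satellite cells (SCs), the stem cells of muscle. Ribo-seq sequences the mRNA fragments, or footprints, that translating ribosomes protect from nuclease. The WT group (2 libraries) came from littermates that the study calls wild type, given as Pax7 CreERT2/+ in one place and as Pax7 +/+;eIF5A f/f in another, so whether the controls carry Cre is not settled. The KO group (2 libraries) came from Pax7 CreERT2/+;eIF5A f/f mice, which carry floxed alleles of eIF5A, a translation factor. Tamoxifen, described for both KO and control mice of the study, switches on the Cre recombinase in Pax7-expressing cells, so that cells that never expressed Pax7 keep eIF5A. Per the study's text the mice were 3 weeks old. Per the labels the cells were proliferating primary myoblasts at day 2, cultured with FGF at 10 µg/ml and treated with cycloheximide at 100 µg/ml to halt elongation. The study describes the Ribo-seq as done in duplicate experiments but does not say whether these used separate cultures or animals. The p-values thus measure only the spread between these libraries, which may be technical.

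Each library held 642429 to 704006 gene-assigned reads. Reads of protein-coding genes made up 33.9% and 41.5% of the WT libraries and 59.2% and 65.4% of the KO libraries, so this share moved with the group, and its part in the results was not tested. Eif5a itself did not separate the groups. Its level was 34.9 and 65.2 RPKM (reads per kilobase of gene model after the library scaling of the authors) in the WT libraries and 60.3 and 59.4 RPKM in the others, a log2 difference of 0.32 ± 0.48 (limma, adjusted p = 0.839). "KO" below therefore means the libraries labelled KO. Footprints per gene reflect both the amount of mRNA and how often it is translated, which cannot be told apart in these values, nor can fewer cells of a type and less RNA per cell.

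Receptor tyrosine kinases span the plasma membrane. A growth factor outside the cell draws receptors together, the kinase parts inside phosphorylate each other, and adaptor proteins then start the Ras-MAPK and PI3K-Akt cascades. In muscle, Met is the receptor for HGF, a factor known to wake quiescent SCs, and FGF signals keep myoblasts dividing and delay their differentiation. Fgfr1 and Fgfr4 are the FGF receptors that myogenic cells are best known for, Pdgfra marks fibro-adipogenic stromal cells of muscle, and Pdgfrb marks pericytes and other mural cells. eIF5A, the factor targeted here, helps ribosomes through runs of prolines and other slow stretches.

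Because the 9 kinases descend from a common ancestor, the stretch that encodes the catalytic loop of the kinase, among the best conserved, is printed for 7 of them to show whether a footprint of about that size can be assigned to 1 receptor. The 30 bases below were taken from GENCODE vM21 transcripts on GRCm38, 5′ to 3′ on the coding strand, and capitals mark bases that differ from Fgfr1.
Fgfr1, chr8:25572344-25572373, plus strand: caccgagacctggctgctaggaacgtcctg
Fgfr2, chr7:130172904-130172933, minus strand: caTcgagaTTtggctgcCagAaacgtGTtg
Fgfr3, chr5:33734353-33734382, plus strand: cacAgagacTtggctgcCagAaacgtcctg
Fgfr4, chr13:55166864-55166893, plus strand: caccgGgacctggctgcCCgAaaTgtGctg
Pdgfra, chr5:75185957-75185986, plus strand: caccgGgacctggctgcCCgCaacgtcctC
Egfr, chr11:16904338-16904367, plus strand: caccgTgacTtggcAgcCaggaaTgtActg
Insr, chr8:3161370-3161399, minus strand: caccgGgacctggcAgctCgAaacTGcAtg
Even here each receptor printed differed from Fgfr1 at 4 bases (Fgfr3) to 7 bases (Fgfr2 and Insr). Of those not printed, Pdgfrb differed from Fgfr1 at 6 bases and Met, whose stretch is split by an intron, at 8. Over the whole coding sequences no window of 28 bases was shared between any of the 9 receptors. The longest run that 2 of them had in common was 26 bases, between Fgfr1 and Fgfr3. That is the length of the shortest footprints in the range the study gives. Only exact matches were counted, with the longest coding sequence of each receptor.

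Shared windows with other genes were few. Of the 2472 windows of 28 bases in the Fgfr1 coding sequence, 139 (5.62%) were also in Gm16159, a long noncoding RNA on the opposite strand that held 2 reads in all. Fgfr3 shared 130 of 2379 windows, with its pseudogene Fgfr3-ps, G630022F23Rik and Nvl. Fgfr4 shared 1 window with Tie1, Pdgfra 3 with a microRNA gene inside it, Insr 2 with Insrr, and the other 4 receptors none. Egfr overlaps an antisense RNA, Egfros, with 6 reads. The deposited Fgfr2 model spans 69 other genes, which makes its count uncertain. Whether the counting used the strand was not given in the sources used here.

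Proline runs are the feature that eIF5A is best known for. Of the 9 receptors 1, Insr, had runs of at least 3 prolines, beside 4341 of 21794 protein-coding genes (19.9%), and the longest run in the other 8 was 1 or 2. Both Insr runs are printed because they are where slowing would be looked for first. Capitals mark the proline codons, the source is the same as above, and both lie on the minus strand.
Insr residues 269 to 271, chr8:3211528-3211560: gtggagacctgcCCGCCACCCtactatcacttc
Insr residues 1119 to 1121, chr8:3161463-3161495: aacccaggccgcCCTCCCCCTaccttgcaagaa
The table gives 1 value per gene, so the footprints at these codons were not analysed here.

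Levels per kilobase of gene model spread widely over the receptors. In the WT libraries Pdgfra (37.5 ± 8.35 RPKM, mean ± SD, n = 2), Pdgfrb (36.2 ± 1.89), Fgfr1 (29.8 ± 8.70), Fgfr4 (20.2 ± 15.1) and Egfr (10.4 ± 2.03) followed each other, and each overlapped the next one down. Met (4.79 ± 0.659) and Insr (3.96 ± 1.23) lay below Egfr without overlap and overlapped each other. Fgfr3 and Fgfr2 were lowest and overlapped each other. In the KO libraries the order was Pdgfra, Pdgfrb, Fgfr1, Egfr, Insr, Fgfr4, Met, Fgfr3 and Fgfr2, and Fgfr4 stood among the low receptors. There Pdgfra lay above Pdgfrb, and Pdgfrb above Fgfr1, without overlap. Fgfr1 overlapped Egfr, Insr overlapped Fgfr4, Fgfr4 overlapped Met, and Fgfr3 overlapped Fgfr2. These levels are per kilobase of the whole gene model, and footprints fall mostly on coding sequence. Per kilobase of coding sequence, at the same library scaling, Fgfr1 (118 ± 34.4) and Pdgfra (115 ± 25.6) were level at the top of the WT libraries, with Pdgfrb at 59.9 ± 3.13 below both without overlap. On that scale the KO libraries had Pdgfra (202 ± 96.8) above Fgfr1 (84.7 ± 16.2) and Fgfr1 above Pdgfrb (57.4 ± 15.5), each without overlap, so Fgfr1 and Pdgfrb change places with the length used.

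**Figure D1:**
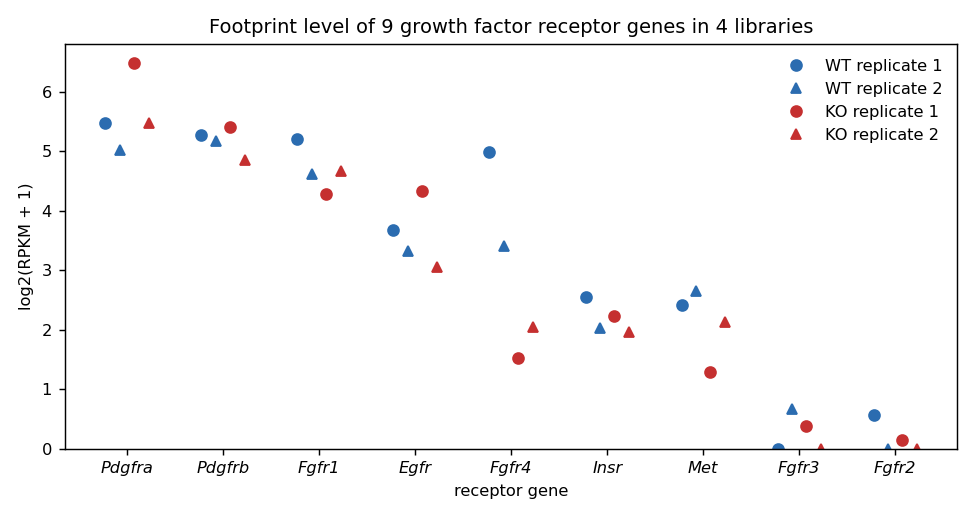
Footprint level of each of the 9 receptor genes on the log2(RPKM + 1) scale (vertical axis) in the 2 WT libraries (blue) and the 2 KO libraries (red), circles for replicate 1 and triangles for replicate 2. Fgfr4 has both red points below both blue ones with the widest gap, Pdgfra has its KO replicate 1 far above the others, and Fgfr2 and Fgfr3 lie near 0.

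The 9 receptors together took 0.301% and 0.209% of the protein-coding reads of WT replicates 1 and 2 and 0.312% and 0.208% of those of the KO replicates (810, 454, 1434 and 800 reads in turn). Replicate 1 was the higher one in both groups, and the groups overlapped.

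Difference between groups was tested with limma on log2(RPKM + 1), over the 11363 genes whose mean RPKM was 1 or more. Among them were 7 of the 9 receptors, and Fgfr2 and Fgfr3 were not tested. None of the 7 had an adjusted p under 0.05, a level that 12 genes (0.106%) reached. At an unadjusted p under 0.05, 1 of the 7 was lower in KO (Fgfr4) and 0 were higher, beside 4.46% and 2.86% of all genes. Both KO values lay below both WT values in 2 of the 7 (Fgfr4 and Met) and above them in 1 (Pdgfra), beside 20.3% and 20.1% of all genes. With 2 libraries against 2, an exact permutation test cannot give a p under 0.33, so it gives no call for any receptor. The median log2 difference of the 7 was -0.19, beside 0.00026 over all genes tested.

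Of the FGF receptors, Fgfr4 showed the largest difference among the 7 tested. Fgfr4 (ENSMUSG00000005320, chromosome 13, 55152640 to 55168759, plus strand, GRCm38) is a receptor of myogenic cells and a known target of the transcription factor Pax3. Its level was 30.9 and 9.59 RPKM in WT replicates 1 and 2 and 1.87 and 3.15 RPKM in KO replicates 1 and 2, from 66, 16, 6 and 9 reads. Both KO libraries were below both WT libraries, and the WT libraries themselves were far apart. The mean was 8.08-fold higher in WT (20.2 ± 15.1 against 2.51 ± 0.904 RPKM, SD, n = 2). The log2 difference, KO minus WT, was -2.41 ± 0.60 (SE, 95% interval -3.90 to -0.93). By limma its p was 0.00747, and 0.604 after adjustment. Limma voom on the reads recovered from the RPKM gave -2.81 and an adjusted p of 0.0260. By voom 0.695% of genes had an adjusted p under 0.05, 78 of 79 lower in KO. On genes with 20 or more reads, an alternative added once the data had been seen, voom gave -2.82 and an adjusted p of 0.0661, with 0.48% of genes called. Without WT replicate 1 the limma difference was -1.62, and the left-out fits ranged from -3.21 to -1.62.

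Fgfr1 (ENSMUSG00000031565, chromosome 8, 25513654 to 25575718, plus strand), the main FGF receptor of dividing myoblasts and of many stromal cells, was at 35.9 and 23.6 RPKM in the WT libraries and 18.5 and 24.3 RPKM in the KO libraries (214, 110, 166 and 194 reads). The groups overlapped, with KO replicate 2 just above WT replicate 2. The log2 difference was -0.44 ± 0.43 (95% interval -1.51 to 0.63, limma adjusted p = 0.743), which leaves room for either direction. It was -0.15 without WT replicate 1, -0.25 without KO replicate 1 and -0.73 without WT replicate 2. Scaled to total reads it was 0.15.

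Fgfr2 and Fgfr3, receptors better known from epithelium, skeleton and brain, were close to absent. Fgfr2 (ENSMUSG00000030849, chromosome 7, 130162451 to 133123350, minus strand) had 3 reads in WT replicate 1 and 1 in KO replicate 1, and Fgfr3 (ENSMUSG00000054252, chromosome 5, 33721674 to 33737068, plus strand) had 2 in WT replicate 2 and 2 in KO replicate 1, with 0 in each remaining library. Neither passed 3 reads in a library, the floor below which a level was not told from 0, so no fold is given and a difference was not detectable at this depth.

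Within the FGF receptors the split between Fgfr1 and Fgfr4 differed between the groups, a measure that does not depend on how libraries were scaled. Fgfr4 took 23.3% of FGF receptor reads in WT replicate 1 (95% Wilson interval 18.8 to 28.6%) and 12.5% in WT replicate 2 (7.84 to 19.3%). It took 3.43% in KO replicate 1 (1.58 to 7.28%) and 4.43% in KO replicate 2 (2.35 to 8.21%). The groups did not overlap, though the intervals of WT replicate 2 and KO replicate 2 met. The means were 17.9 ± 7.65% and 3.93 ± 0.711% (n = 2), a difference of -14.0 percentage points (exact permutation p = 0.33, the smallest this design allows). Without WT replicate 1 the difference was -8.57 points. Fgfr1 took most of the rest, 80.8 ± 7.30% in WT and 95.2 ± 0.502% in KO. Intervals cover counting error only.

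Markers of the myogenic cells are given beside Fgfr4. The summed level of 10 satellite cell and myoblast markers was 260 and 210 RPKM in the WT libraries and 120 and 135 RPKM in the KO libraries. Of the 9 tested, 8 had a lower mean log2(RPKM + 1) in KO, the scale on which directions are counted here and for each list below, and 4 had an unadjusted p under 0.05, all lower, beside 4.46% of all genes: Pax7 (the SC transcription factor), Myf5 (a myogenic regulator), Des (the muscle filament protein desmin) and Chrna1 (an acetylcholine receptor subunit). Chrna1 was at 17.4 and 16.0 RPKM in WT and 2.26 and 4.52 RPKM in KO, and Myod1, the myogenic regulator highest in the list, at 140 and 117 against 48.6 and 79.8 RPKM. Itga7, the laminin-binding integrin of muscle, overlapped (22.8 and 12.1 against 29.7 and 8.87 RPKM). Of the 9, 6 lay lower in KO without overlap and 1 higher, the adhesion protein Vcam1 (5.42 and 11.7 against 20 and 13.0 RPKM), beside 20.3% and 20.1% of all genes. The Myf5 values rest on 8 and 4 reads for WT against 2 and 0 for KO, so this gene entered the test only through the WT libraries. Pax7, Myf5, Chrna1 and Vcam1 are named after their values were seen, and none of the 9 had an adjusted p under 0.05. The part of these markers in the Fgfr4 difference was not tested.

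Markers of differentiating myocytes had a lower mean in KO for 5 of the 5 tested, 4 of them without overlap (beside 20.3% of all genes) and 2, Myog and Actc1, with an unadjusted p under 0.05 (beside 4.46%). The summed level of the list set WT replicate 1 apart. Over the 12 genes, of which Tnnc2 was at 0 in all libraries, it was 303 RPKM there, beside 58.3 in WT replicate 2 and 38.8 and 34.8 in the KO libraries. Myog, the regulator of differentiation, was at 91.0 RPKM in WT replicate 1, at 4.26 in WT replicate 2 and at 0.737 and 1.66 in the KO libraries. The muscle actins Acta1 (129 and 41.5 RPKM in WT, 30.1 and 25.8 in KO) and Actc1 (63.6 and 6.56 against 2.04 and 3.06) were also highest there. None of the 5 had an adjusted p under 0.05. WT replicate 1 is also where Fgfr4 was highest. The Fgfr4 difference was in the same direction but smaller without that library, as given above, and its part beyond that was not tested.

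**Figure D2:**
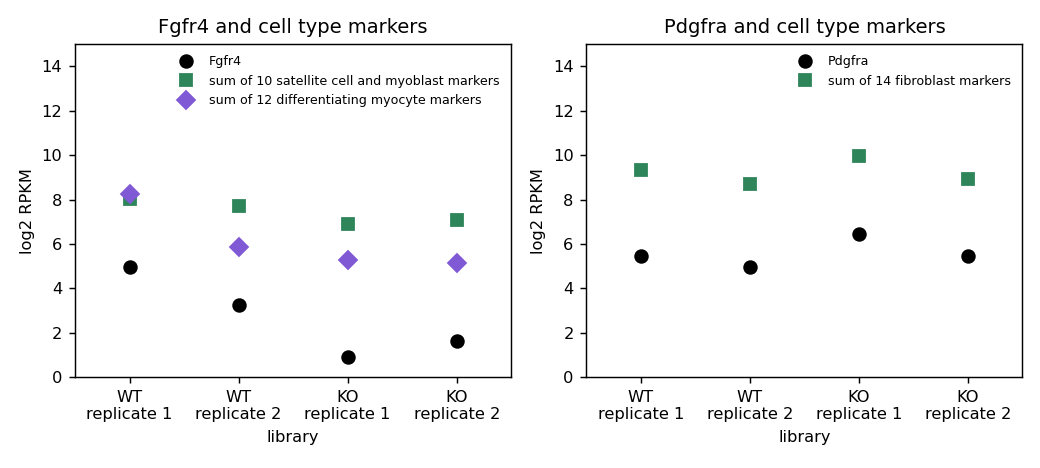
Log2 RPKM in each of the 4 libraries, for Fgfr4 with the summed satellite cell and myoblast markers and the summed differentiating myocyte markers (left) and for Pdgfra with the summed fibroblast markers (right). Fgfr4 and both muscle marker sums are higher in the WT libraries, and Pdgfra and the fibroblast sum are highest in KO replicate 1.

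Of the PDGF receptors, Pdgfra was the receptor with the most reads and the only one with both KO values above both WT values. Pdgfra (ENSMUSG00000029231, chromosome 5, 75152292 to 75198215, plus strand) binds the PDGF-A, PDGF-B and PDGF-C chains. Its level was 43.4 and 31.6 RPKM in WT replicates 1 and 2 and 88.2 and 43.6 RPKM in KO replicates 1 and 2 (262, 149, 802 and 353 reads). KO replicate 1 stood far above the other 3, and KO replicate 2 was level with WT replicate 1. The means were 37.5 ± 8.35 and 65.9 ± 31.5 RPKM (n = 2), 1.76-fold higher in KO, with a log2 difference of 0.73 ± 0.52 (95% interval -0.54 to 2.00, limma adjusted p = 0.703). With 1 library left out it ranged from 0.23 (without KO replicate 1) to 1.23 (without KO replicate 2). Scaled to protein-coding reads it was 0.62, and the groups overlapped. Scaled to total reads it was 1.33 (limma adjusted p = 0.311), without overlap.

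Pdgfrb (ENSMUSG00000024620, chromosome 18, 61045150 to 61085061, plus strand), the receptor for PDGF-B on mural and stromal cells, was at 37.5 and 34.9 RPKM in the WT libraries and 41.3 and 28 RPKM in the KO libraries (124, 90, 205 and 124 reads). The KO values lay on either side of the WT values. The log2 difference was -0.09 ± 0.43 (95% interval -1.13 to 0.96, limma adjusted p = 0.958).

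The balance of the PDGF receptors leaned further to Pdgfra in KO. Pdgfra took 67.9% (95% Wilson interval 63.1 to 72.3%) and 62.3% (56.1 to 68.2%) of PDGF receptor reads in the WT libraries. It took 79.6% (77.0 to 82.0%) and 74.0% (69.9 to 77.7%) in the KO libraries. The groups did not overlap, and the intervals of WT replicate 1 and KO replicate 2 did. The mean share was 65.1 ± 3.91% in WT and 76.8 ± 3.99% in KO, a difference of 11.7 percentage points (exact permutation p = 0.33). With 1 library left out it ranged from 8.89 to 14.5 points.

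**Figure D3:**
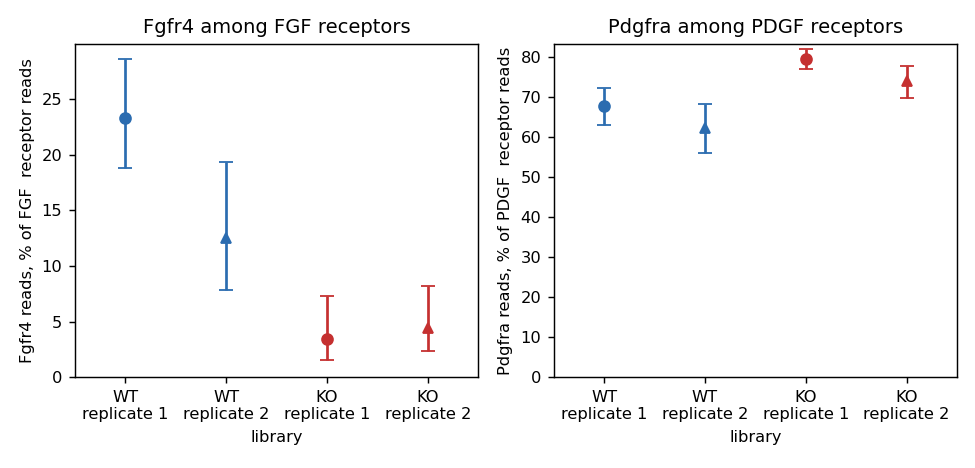
Share of FGF receptor reads that belonged to Fgfr4 (left) and of PDGF receptor reads that belonged to Pdgfra (right) in each library, in percent with 95% Wilson intervals. Fgfr4 takes 12.5 and 23.3% in WT against 3.43 and 4.43% in KO, and Pdgfra takes 62.3 and 67.9% against 74.0 and 79.6%.

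Among the reads of all 9 receptors, Pdgfra took 32.3% and 32.8% in WT against 55.9% and 44.1% in KO. This was a difference of 17.4 percentage points without overlap (exact permutation p = 0.33), or 11.5 points without KO replicate 1. Fgfr4 took 8.15% and 3.52% in WT and 0.418% and 1.12% in KO, a difference of -5.06 points, which was -2.75 points without WT replicate 1. Insr took 4.94% and 4.41% against 3.21% and 4.00%, also without overlap, and the shares of the other 6 receptors overlapped between the groups. Shares of a fixed total are not independent of each other.

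Fibroblast markers were present in every library, at a higher summed level than the myoblast markers. Their sum (14 genes, with Tcf21 at 0 in all libraries) was 636 and 422 RPKM in WT replicates 1 and 2 and 990 and 492 RPKM in KO replicates 1 and 2. KO replicate 1 was highest for this sum and for Pdgfra, and the groups overlapped in the sum. Of the 12 tested, 10 had a higher mean in KO. Both KO values lay above both WT values in 3 of them and below them in 1, beside 20.1% and 20.3% of all genes. Postn, an extracellular matrix protein of activated fibroblasts named after its value was seen, alone had an unadjusted p under 0.05. It was higher in KO, as were 2.86% of all genes at that level. Dcn, the matrix proteoglycan decorin, was at 240 and 126 RPKM in WT and 460 and 171 RPKM in KO. The next markers by level were Ly6a (150 and 134 against 214 and 129 RPKM) and Col3a1 (66.7 and 25.7 against 50.2 and 23.5 RPKM). The part of these cells' markers in the Pdgfra values was not tested.

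Pericytes and smooth muscle cells are the cells that Pdgfrb is known from. The 10 pericyte and smooth muscle markers (Tagln at 0 in all libraries) summed to 151 and 106 RPKM in WT and 79.8 and 100 RPKM in KO, with Acta2, smooth muscle actin, at 98.2 and 73.5 against 46.7 and 67.1 RPKM. Rgs5 was at 17.9 and 11.7 against 7.76 and 10.3 RPKM and Mcam at 16.3 and 6.97 against 13.8 and 9.61 RPKM. Without Acta2, a sum taken once the data had been seen, it was 52.9 and 32.5 against 33.1 and 33.2 RPKM, and the groups overlapped. Of the 7 tested, 3 had a higher and 4 a lower mean in KO, with a median log2 difference of -0.59. The 4 lower ones and 1 of the higher ones did not overlap (beside 20.3% and 20.1% of all genes), none had an unadjusted p under 0.05, and their part in the Pdgfrb values was not tested. The 9 endothelial markers, among them Cldn5, Cdh5 and Esam, summed to 267 and 395 against 352 and 445 RPKM, and the 8 immune markers to 45.7 and 60.6 against 56.9 and 49.5 RPKM, with Cd14, Cd68 and Lyz2 highest and Itgam and Cd3e at 0. None of the 4 immune markers tested overlapped, 2 being higher in KO and 2 lower, beside 20.1% and 20.3% of all genes. At an unadjusted p under 0.05, 1 of these 4 was higher and 1 lower, beside 2.86% and 4.46% of all genes. The higher was the macrophage marker Adgre1, named after its value was seen (1, 3, 13 and 11 reads). The lower was Lyz2, the lysozyme of myeloid cells (9, 8, 5 and 6 reads). Of the 6 epithelial markers 5 were at 0 in all libraries and Cdh1 had 1 read. The libraries labelled primary myoblast thus held transcripts of stromal and endothelial genes beside the muscle ones.

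Met, Egfr and Insr, the receptors for HGF, for EGF and its relatives and for insulin, showed no difference past the test. Met (ENSMUSG00000009376, chromosome 6, 17463800 to 17573980, plus strand) was at 4.32 and 5.25 RPKM in the WT libraries and 1.44 and 3.39 RPKM in the KO libraries, from 20, 19, 10 and 21 reads. Both KO values were below both WT values. The WT mean was 1.99-fold higher and the log2 difference was -0.82 ± 0.45 (95% interval -1.92 to 0.28, limma adjusted p = 0.691). It was -0.40 without KO replicate 1 and -1.24 without KO replicate 2. Scaled to total reads it was -0.35, and the groups overlapped.

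Egfr (ENSMUSG00000020122, chromosome 11, 16752203 to 16918158, plus strand) was at 11.9 and 9.0 RPKM in the WT libraries and 19.1 and 7.32 RPKM in the KO libraries (81, 48, 196 and 67 reads). The KO libraries lay on either side of the WT libraries. The log2 difference was 0.19 ± 0.53 (95% interval -1.11 to 1.49, limma adjusted p = 0.918), and without KO replicate 1 it was -0.45.

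Insr (ENSMUSG00000005534, chromosome 8, 3122061 to 3279617, minus strand), the receptor with the 2 proline runs printed above, was at 4.83 and 3.09 RPKM in the WT libraries and 3.69 and 2.88 RPKM in the KO libraries (40, 20, 46 and 32 reads). The groups overlapped. The log2 difference was -0.19 ± 0.40 (95% interval -1.18 to 0.79, limma adjusted p = 0.884), the median of the 7 tested. The part of the proline runs in this value was not tested.

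**Figure D4:**
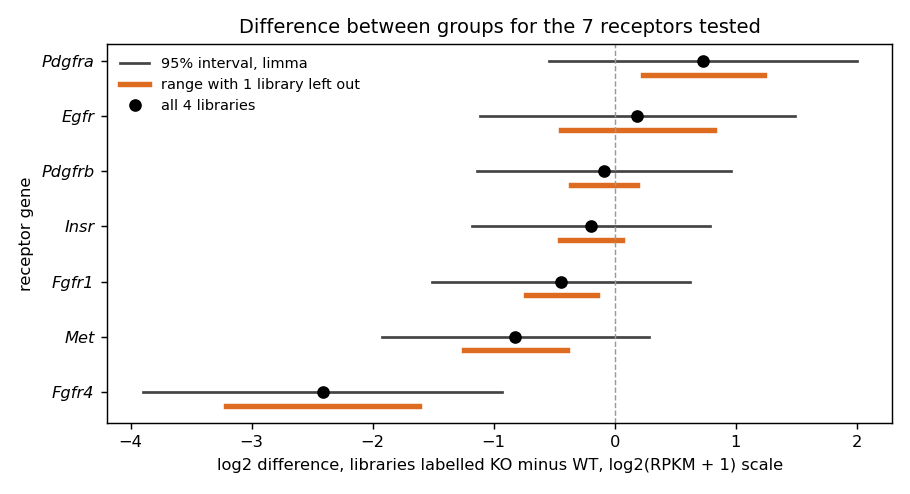
Log2 difference, KO minus WT on the log2(RPKM + 1) scale (horizontal axis), for the 7 receptors tested: points from all 4 libraries with 95% limma intervals (thin lines), and the range when 1 library is left out (orange bars). The Fgfr4 interval, -3.90 to -0.93, alone lies wholly on one side of 0, and no receptor passed the adjusted threshold.

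The genes whose 4 library values were most like those of the 3 receptors with the most reads were found by distance between centred log2(RPKM + 1) values, among 3356 protein-coding genes with at least 100 reads. They are a description over only 4 libraries. For Pdgfra they were Ktn1 (distance 0.0717), Rnf213 (0.0902) and Penk (0.114). For Fgfr1 they were Ccdc50 (0.0253), Ptprs (0.0569) and Ptpra (0.0686), both of the latter receptor tyrosine phosphatases. For Pdgfrb they were Vps13d (0.0722), Nucb1 (0.0853) and Adam17 (0.0867), the last being the protease that sheds several EGF family ligands. For Fgfr4, added after its values were seen, the nearest were farther off: Hr (0.603), Trim8 (0.880) and Cdon (0.895), a cell surface receptor of myogenic cells. Cdon was at 18.3 and 6.05 RPKM in WT and 2.72 and 3.21 RPKM in KO.

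The genes of the ligands had low footprint levels. Of 26 ligand genes 11 were tested, 4 with a higher and 7 with a lower mean in KO, and Epgn, Fgf6, Ins1 and Ins2 were at 0 in all libraries. At an unadjusted p under 0.05, 1 was lower and 0 were higher (beside 4.46% and 2.86% of all genes), 3 lay lower and 1 higher without overlap (beside 20.3% and 20.1%), and the median log2 difference was -0.31. The 1 higher was Fgf18 (0, 0, 2 and 3 reads), and 1 of the 3 lower was Igf2 (15, 1, 0 and 0 reads). Each entered the test only through the group where it was high, and both are named after their values were seen. The highest were Hbegf, an EGF receptor ligand (6.52 and 18 RPKM in WT, 16.9 and 18.7 in KO), Fgf7, a ligand of the epithelial form of Fgfr2 (11.2 and 8.50 against 6.79 and 12.2), and Pdgfa, a Pdgfra ligand (16.0 and 6.81 against 4.60 and 6.35). The 1 gene past the unadjusted threshold was Pdgfb, the Pdgfrb ligand, named after its value was seen. It was at 10.4 and 13.3 RPKM in WT and 2.38 and 4.17 RPKM in KO (log2 difference -1.61 ± 0.40, limma adjusted p = 0.608).

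Co-receptors and activating proteins, which hold or cut ligands at the cell surface, had 20 of 24 genes tested. Of these 14 had a higher and 6 a lower mean in KO, with a median log2 difference of 0.40, and both KO values lay above both WT values in 7 and below them in 3, beside 20.1% and 20.3% of all genes. At an unadjusted p under 0.05, 1 of the 20 was higher in KO and 0 were lower, beside 2.86% and 4.46% of all genes. This was Sdc2, a heparan sulfate proteoglycan named after its value was seen (3.76 and 2.41 RPKM in WT, 6.88 and 7.37 in KO, log2 difference 1.01 ± 0.38, limma adjusted p = 0.672). Sdc4, the highest syndecan and a co-receptor for FGF, was at 87.3 and 98.3 against 89.2 and 101 RPKM. Lrp1, an endocytic receptor, was at 125 and 46.6 against 124 and 49.4 RPKM, so replicates differed more than groups. Gpc4, a glypican, was at 36.9 and 28 against 185 and 55.1 RPKM, highest in KO replicate 1 as Pdgfra was.

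Of 41 other receptor tyrosine kinases 24 were tested, 13 with a higher and 11 with a lower mean in KO and a median of 0.07. Axl, the receptor for GAS6, was the highest (77.5 and 104 RPKM in WT, 88.3 and 90.3 in KO), above each of the 9 receptors in mean level per kilobase of gene model. Next were the collagen receptor Ddr2 (14.0 and 12.6 against 22.3 and 18.8) and the ephrin receptor Epha2 (19.9 and 12.7 against 17.9 and 16.4). At an unadjusted p under 0.05, 1 of the 24 was higher in KO and 1 lower, beside 2.86% and 4.46% of all genes. The higher was Kdr, the endothelial VEGF receptor (3.31 and 4.47 against 10.0 and 7.68). The lower was the collagen receptor Ddr1 (10.4 and 6.22 against 2.54 and 3.63). Both are named after their values were seen, and neither had an adjusted p under 0.05.

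Inside the cell, adaptors and proximal effectors (23 of 28 tested) had 6 higher and 17 lower means in KO, a median of -0.38 and no gene with an unadjusted p under 0.05. The highest were Stat3, a transcription factor that receptors activate (27.2 and 27.4 RPKM in WT, 36.2 and 23.3 in KO), Dok1 (14.3 and 8.59 against 12.3 and 21.3) and the adaptor Crk (18.6 and 13.0 against 12.6 and 10.5). The PI3K-Akt cascade (19 of 22) had 3 higher and 16 lower means, a median of -0.42 and likewise no gene with an unadjusted p under 0.05. Both KO values lay below both WT values in 8 of the 19 and above them in 2, beside 20.3% and 20.1% of all genes. Its kinase Akt1 was at 34.8 and 30.6 RPKM in WT and 17.8 and 26.6 in KO, and Gsk3a, a kinase that Akt inhibits, at 10.3 and 20.5 against 5.32 and 9.39. Rheb, the GTPase that switches on mTORC1, was at 14.4 and 11.3 against 12.4 and 14.4 RPKM. These medians are beside 0.00026 for all genes tested, and they were not tested as lists.

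The Ras-MAPK cascade (17 of 18 tested) was evenly split, with 8 higher and 9 lower means. Both KO values lay above both WT values in 2 of the 17 and below them in 4, beside 20.1% and 20.3% of all genes. Hras, a Ras GTPase named after its value was seen, alone had an unadjusted p under 0.05. It was lower in KO (5.78 and 10.8 RPKM against 3.54 and 1.66, limma adjusted p = 0.672), as were 4.46% of all genes at that level. Rras (57.7 and 53.0 against 44.3 and 57.4), the MEK gene Map2k1 (21.5 and 34.4 against 38.0 and 31.8) and the ERK gene Mapk3 (42.6 and 23.5 against 24.4 and 31.8) overlapped. Negative regulators (28 of 32) had 10 higher and 18 lower means, a median of -0.20 and no gene with an unadjusted p under 0.05. Both KO values lay above both WT values in 2 of these 28 and below them in 5, beside 20.1% and 20.3% of all genes. The ERK phosphatase Dusp6 was at 67.8 and 90.1 RPKM in WT and 109 and 103 in KO, and Spry2, an inhibitor of receptor signalling, at 60.4 and 47.8 against 37.0 and 35.6, each without overlap. Errfi1, an inhibitor of the EGF receptor, was at 49.5 and 75.8 against 64.3 and 89.9. No gene of the 7 pathway lists had an adjusted p under 0.05.

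**Figure D5:**
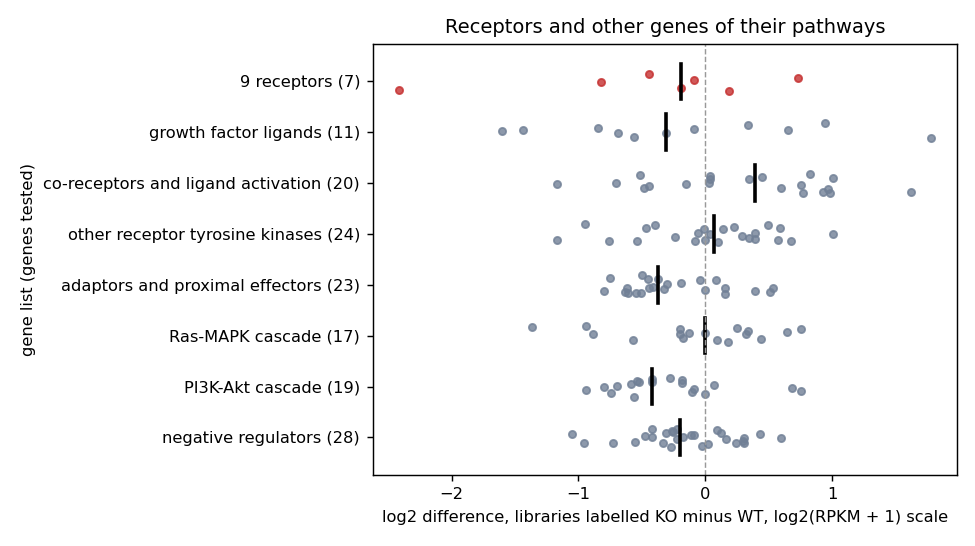
Log2 difference, KO minus WT on the log2(RPKM + 1) scale (horizontal axis), of each gene tested among the receptors (red) and the 7 pathway lists (grey), with black bars at the medians and the number of genes tested in brackets. The medians run from -0.42 (PI3K-Akt cascade) to 0.40 (co-receptors and ligand activation), and Fgfr4, at -2.41, is the leftmost point.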

How the data were processed

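Ribo-seq was performed on 2 WT and 2 KO libraries. Per the study's methods, reads free of adapters, rRNA and tRNA were mapped by TopHat2 to mm10 (GRCm38), and HTSeq then assigned them to Ensembl gene models. The treatment of multi-mapping reads and of strand is not given in the sources used here. The authors deposited RPKM. RPKM multiplied by gene length gave whole reads (within 0.1) for 100.0% of values in each library, and showed that the values had been scaled by median-of-ratios size factors (0.713 to 1.37), so they cannot show a change that most genes share.

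Differences were tested with limma 3.58.1 (trend, R 4.3.3) on log2(RPKM + 1), which understates the change of low genes, for genes whose mean RPKM was 1 or more. P-values were two-sided, with Benjamini-Hochberg adjustment and a threshold of 0.05. A floor of 3 reads corresponded to 3.31 to 6.37 RPKM at 1 kb. Without molecular identifiers, the intervals and the floor describe counting error alone. Coding sequences came from GENCODE vM21 (99.8% of gene IDs matched). The members, gene lists and tests were chosen with earlier results of these data known. Named were the 9 receptors, Eif5a, the 3 genes most like each of the 3 receptors with most reads, the 3 highest genes of each list, any list gene with an adjusted p under 0.05 and markers at 0. Others were named after their values were seen. Alternatives changed the pseudocount, the filter, the genes fitted, the scaling, the method (voom), GC and length trends, the replicate block, the gene length and the libraries included.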

Additional observations from a re-analysis of the deposited data

How the results depend on the processing

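Over 14 alternatives the 7 receptors gave 98 log2 differences, of which 89 kept their direction and their side of the threshold. Without the filter, for protein-coding genes alone and with the replicate block, the log2 differences equalled the main ones by construction. There only the side of the threshold could change. The block likewise left the values with GC and length trends removed as they were. Scaled to total reads, which shifted the median gene by 0.50, Fgfr1 was at 0.15, Pdgfrb at 0.51 and Insr at 0.28, all reversed. Pdgfrb was at 0.088 with GC and length trends removed, with or without the replicate block. Insr was reversed without WT replicate 1, Egfr without KO replicate 1 and Pdgfrb without KO replicate 2. With 1 library left out Egfr ranged from -0.45 to 0.82, Pdgfrb from -0.36 to 0.18 and Insr from -0.45 to 0.062. The causes were not tested. Voom called 1 receptor, Fgfr4 (adjusted p = 0.0260). Over all alternatives its adjusted p ranged from 0.0260 to 0.944. With a library left out, 3 to 6 of the 7 receptors did not overlap, beside 62.1 to 75.4% of all genes. The Fgfr4 share difference was -14.0 points among FGF receptors alone and -5.06 among all 9. The ratio of Pdgfra to Pdgfrb levels was 1.03 in WT and 1.90 in KO, and per kilobase of coding sequence 1.92 and 3.53.

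The replicate numbers were not shown to pair the libraries (correlation of replicate differences 0.072 over 9877 genes, 2 pairs). With the replicate block 0 receptors were called (Fgfr4 adjusted p = 0.541), and the 12 calls over all genes became 0, with 827 genes at an unadjusted p under 0.05. Calls over all genes by limma were 0 with a pseudocount of 0.1, without the filter, for protein-coding genes alone, with total reads, with GC and length trends removed and with any library left out (430 to 1858 genes at an unadjusted p under 0.05), and 13 when scaled to protein-coding reads and when the block and the GC correction were combined. Voom called 79, and 43 on genes with at least 20 reads. At these depths a receptor with under about 20 reads in a library, such as Met, or Fgfr4 in 3 of the 4, has a wide counting error.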
